A study of Mus musculus with 8 samples.

Results

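The receptors described here are 9 genes that encode the chains through which blood-forming cells of mouse bone marrow receive their main cytokines: Epor, Csf3r, Csf2ra, Csf2rb, Csf2rb2, Il3ra, Kit, Flt3 and Csf1r. They were chosen by gene symbol from the 23337 genes of the deposited count table, and all 9 were found and had enough counts to be tested. RNA sequencing was done on 8 libraries from C57BL/6 mice aged 4 months. Every animal group carried JAK2V617F/+, an activated form of the kinase that many of these receptors use, so no library comes from mice with unmutated Jak2. The groups were erythroblasts labelled Plek2-/-, erythroblasts labelled Plek2+/+, progenitors labelled Plek2-/- and progenitors labelled Plek2+/+, with 2 libraries each. Erythroblasts were TER119+ bone marrow cells. Progenitors were C-kit+ cells taken from lineage-negative marrow, so Kit protein itself chose them. Whether replicate libraries were made from different mice, and whether animals were pooled, is not stated in the labels, so p-values measure the spread between these libraries, which may be technical.

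Cytokine receptors without a kinase of their own signal through JAK kinases bound to their tails, which phosphorylate STAT proteins and open the Ras and PI3 kinase routes. Epor, Csf3r and the chains for granulocyte-macrophage colony-stimulating factor (GM-CSF) and interleukin 3 are of this kind. Kit, Flt3 and Csf1r are receptor tyrosine kinases that carry the kinase in the same chain. In marrow, Kit and Flt3 mark early progenitors, Epor serves the red cell lineage, and Csf3r, Csf2ra and Csf1r serve granulocytes, monocytes and macrophages. JAK2 V617F signals most strongly with homodimeric receptors such as the erythropoietin receptor.

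Library totals ran from 16038035 to 23521726 counts, and levels are given in CPM, the counts of a gene scaled to a common library size. A gene with no counts may still have had up to 3, which is 0.128 to 0.187 CPM across libraries, by counting error alone. Replicates differed by more than counting error in every group. Plek2 had 616 and 781 counts in erythroblasts labelled Plek2-/-, against 1770 and 1894 in Plek2+/+ erythroblasts. It had 130 and 173 counts in progenitors labelled Plek2-/-, against 29 and 21 in Plek2+/+ progenitors, which goes against the label (log2 fold change 2.47, SE 0.28, edgeR adjusted p = 0.00253). The deleted part of Plek2 is not given in the sources used here, so progenitor genotypes below are those of the labels. Xist, the RNA of the inactive X chromosome, was between 2523 and 3044 CPM in the 4 Plek2+/+ libraries and at most 3.60 CPM in the 4 labelled Plek2-/-, so sex and Plek2 label cannot be told apart. The 11 tested erythroid marker genes were all called higher in erythroblasts than in progenitors under either label, and 12 of 12 stem and progenitor markers were called lower in the Plek2-/- and 11 of 12 in the Plek2+/+ libraries.

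The beta chains show how closely 2 of the receptors resemble each other, which bears on every count given for them. Csf2rb encodes the common beta chain shared by the receptors for GM-CSF, interleukin 3 and interleukin 5, and Csf2rb2 a beta chain that mice use for interleukin 3. Their coding sequences matched at 95.2% of 2628 aligned positions, with an identical run of 242 bases. The following stretches of 120 coding bases (GRCm38, chr15:78348759-78348878, plus strand, and chr15:78284570-78284689, minus strand, each within 1 exon) align end to end, and capitals mark their 2 mismatches.
Csf2rb: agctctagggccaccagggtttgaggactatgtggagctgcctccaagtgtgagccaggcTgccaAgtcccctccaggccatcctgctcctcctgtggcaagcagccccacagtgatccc
Csf2rb2: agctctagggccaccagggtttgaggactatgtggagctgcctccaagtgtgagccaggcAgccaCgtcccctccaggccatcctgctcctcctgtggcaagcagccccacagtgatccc
Of all 50-base stretches of the annotated transcripts, 892 occur in both genes, which is 12.3% of those of Csf2rb and 18.4% of those of Csf2rb2. How the authors assigned reads that fit either gene is not given in the sources used here, so the split of counts within the pair is uncertain.

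On GRCm38 (GENCODE vM21), the beta chain genes neighbour each other on chromosome 15, Csf2rb at chr15:78325752-78353847 on the plus strand and Csf2rb2 at chr15:78282507-78305721 on the minus strand. Kit (chr5:75574916-75656722, plus) and Flt3 (chr5:147330741-147400489, minus) share chromosome 5. Epor lies at chr9:21958897-21963506 (minus), Csf3r at chr4:126024550-126044440 (plus), Csf2ra at chr19:61223957-61228429 (minus) and Il3ra at chr14:14346275-14356011 (plus). Which exons of each gene the deposited counts cover is not given in the sources used here. Csf3r shares 395 of its 3676 50-base stretches with other annotated genes.

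Epor and Flt3 stood at opposite ends of the comparison of the cell populations, and the 250 bases before their RefSeq starts (GRCm38.p6) are shown for that reason. The letters GATAA (the core of sites of GATA factors), CACCC (of sites of Klf factors) and GAGGAA (of sites of Spi1) were searched on both strands, and capitals mark every match.
Epor (chr9:21963577-21963826, minus strand): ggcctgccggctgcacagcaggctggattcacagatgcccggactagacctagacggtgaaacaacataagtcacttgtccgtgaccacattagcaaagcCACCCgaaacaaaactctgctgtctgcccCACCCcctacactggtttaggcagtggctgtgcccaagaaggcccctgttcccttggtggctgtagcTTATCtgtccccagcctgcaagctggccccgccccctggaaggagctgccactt
Flt3 (chr5:147400490-147400739, minus strand): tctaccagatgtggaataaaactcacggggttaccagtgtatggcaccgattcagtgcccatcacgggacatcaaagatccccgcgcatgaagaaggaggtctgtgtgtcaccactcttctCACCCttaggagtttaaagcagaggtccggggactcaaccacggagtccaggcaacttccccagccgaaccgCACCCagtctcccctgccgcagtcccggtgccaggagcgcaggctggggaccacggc
The Epor window held 1 GATAA, which reads TTATC on the strand shown and begins 54 bases before the start, together with 2 CACCC and 0 GAGGAA. The Flt3 window held 0 GATAA, 2 CACCC and 0 GAGGAA. Among the windows of the other receptors, that of Csf2rb2 also held 1 GATAA, which begins 38 bases before its start. Csf2rb2 was lower in erythroblasts than in progenitors (log2 fold change -2.11 in the Plek2-/- and -1.91 in the Plek2+/+ libraries). Among all 32851 promoter windows of this length, 22.6% held GATAA, 52.0% CACCC and 23.3% GAGGAA, so CACCC in both windows is common. A match is a description of letters and no evidence of binding.

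Epor was higher in erythroblasts than in progenitors, the reverse of the other receptors that passed the test. It encodes the erythropoietin receptor, which keeps red cell precursors alive. Its level was 216 and 251 CPM in Plek2-/- erythroblasts and 236 and 248 CPM in Plek2+/+ erythroblasts, and these groups overlapped. It was 17.0 and 19.1 CPM in Plek2-/- progenitors and 19.9 and 21.2 CPM in Plek2+/+ progenitors. Every erythroblast library lay above every progenitor library. Erythroblasts exceeded progenitors by 12.9-fold in the Plek2-/- libraries (log2 fold change 3.69, SE 0.10, edgeR adjusted p = 3.06e-12) and by 11.8-fold in the Plek2+/+ libraries (3.56, SE 0.10, adjusted p = 4.32e-12). Scaled by library totals alone, these log2 fold changes were 2.91 and 2.74. Between the Plek2 labels the difference did not pass the test in erythroblasts (log2 fold change -0.04, 95% confidence interval -0.26 to 0.17, edgeR adjusted p = 0.898) or in progenitors (-0.15, interval -0.38 to 0.08, adjusted p = 0.525). The libraries are bulk samples, in which fewer cells of a type and less RNA per cell cannot be told apart.

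Csf3r gave the largest difference between labels among the receptors. It encodes the receptor for granulocyte colony-stimulating factor, which drives neutrophil formation. In progenitors it reached 216 and 248 CPM in the Plek2-/- libraries, against 106 and 91.2 CPM in the Plek2+/+ libraries, and the groups stood well apart. The rise was 2.42-fold (log2 fold change 1.28, SE 0.10, edgeR adjusted p = 0.000925). In erythroblasts it was 77.4 and 60.2 CPM in the Plek2-/- libraries and 84.0 and 92.9 CPM in the Plek2+/+ libraries. Those groups did not overlap either, yet the difference did not pass the test (-0.36, SE 0.12, edgeR adjusted p = 0.144), and it passed without replicate 1 of the Plek2-/- erythroblasts (-0.55, adjusted p = 0.00243). Plek2+/+ erythroblasts and Plek2+/+ progenitors overlapped in Csf3r level. Erythroblasts were lower than progenitors by 3.37-fold in the Plek2-/- libraries (log2 fold change -1.75, SE 0.12, edgeR adjusted p = 2.40e-08), while in the Plek2+/+ libraries the difference did not pass the test (-0.15, SE 0.12, adjusted p = 0.257) unless libraries were scaled by their totals alone (-0.97, adjusted p = 4.26e-06).

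**Figure D1:**
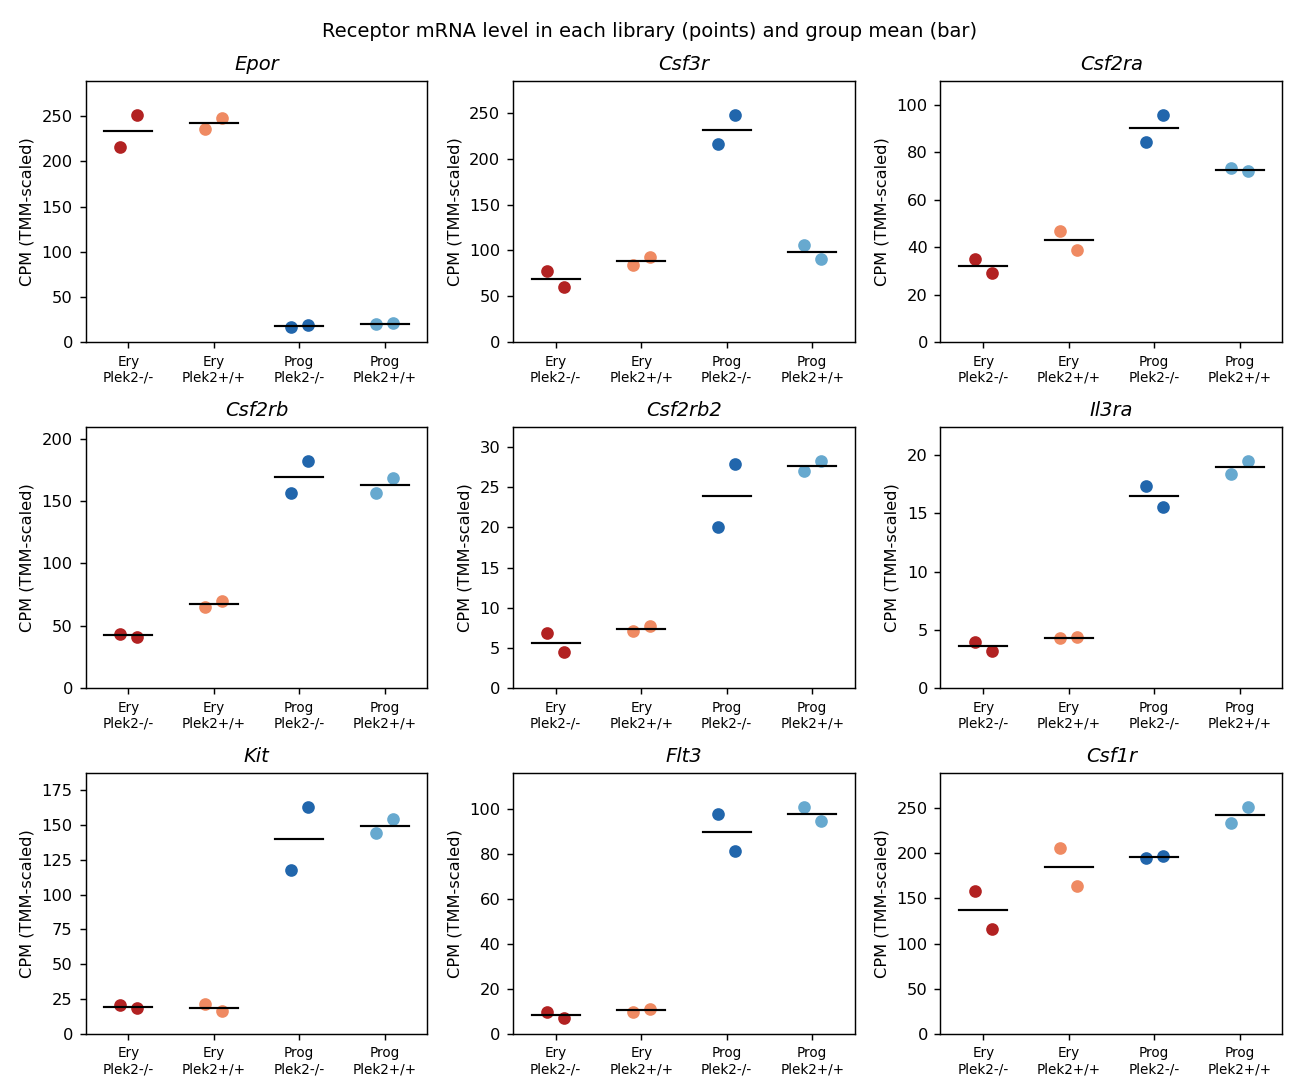
Level of each receptor mRNA in CPM (vertical axis, linear from 0, TMM-scaled) in the 8 libraries, by population and Plek2 label. Points are libraries and bars are group means of 2. Epor stands at 216 to 251 CPM in the erythroblast libraries and at 17.0 to 21.2 CPM in the progenitor libraries, and Csf3r in the Plek2-/- progenitors (216 and 248 CPM) lies above every other group.

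Between the Plek2 labels, the neutrophil marker genes moved in the same direction as Csf3r. The summed level of 15 such genes, among them those for the proteins of secondary granules, was 19385 to 26071 CPM in Plek2-/- progenitors, against 4678 to 7736 CPM in Plek2+/+ progenitors. Of these, 14 were called higher and 0 lower in Plek2-/- progenitors. In erythroblasts the sum was 13791 to 15347 CPM in the Plek2-/- libraries, against 19865 to 22950 CPM in the Plek2+/+ libraries, with 0 genes called higher and 11 lower. None of the 15 was at 0 in both libraries of any group. Between the populations they did not follow Csf3r under both labels. In the Plek2+/+ libraries 14 were called higher in erythroblasts than in progenitors (median log2 fold change 1.62), where Csf3r was at -0.15. In the Plek2-/- libraries 14 were called lower (median -0.80), where Csf3r was at -1.75. A list of 7 genes for the earlier, primary granule stage also held Cebpe, which encodes a transcription factor of late granulocytes. These 7 summed to 3808 to 4673 CPM in Plek2-/- progenitors and 4428 to 5018 CPM in Plek2+/+ progenitors, which overlap. Of them 2 were called higher and 0 lower, with Cebpe among the 2 (log2 fold change 0.96, edgeR adjusted p = 0.00169). In erythroblasts these 7 summed to 716 to 738 CPM in the Plek2-/- libraries, against 921 to 1050 CPM in the Plek2+/+ libraries. There 0 were called higher and 3 lower, with Cebpe among the 3 (-0.65, edgeR adjusted p = 0.0179). The part of neutrophil-lineage cells in the Csf3r difference was not tested.

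**Figure D2:**
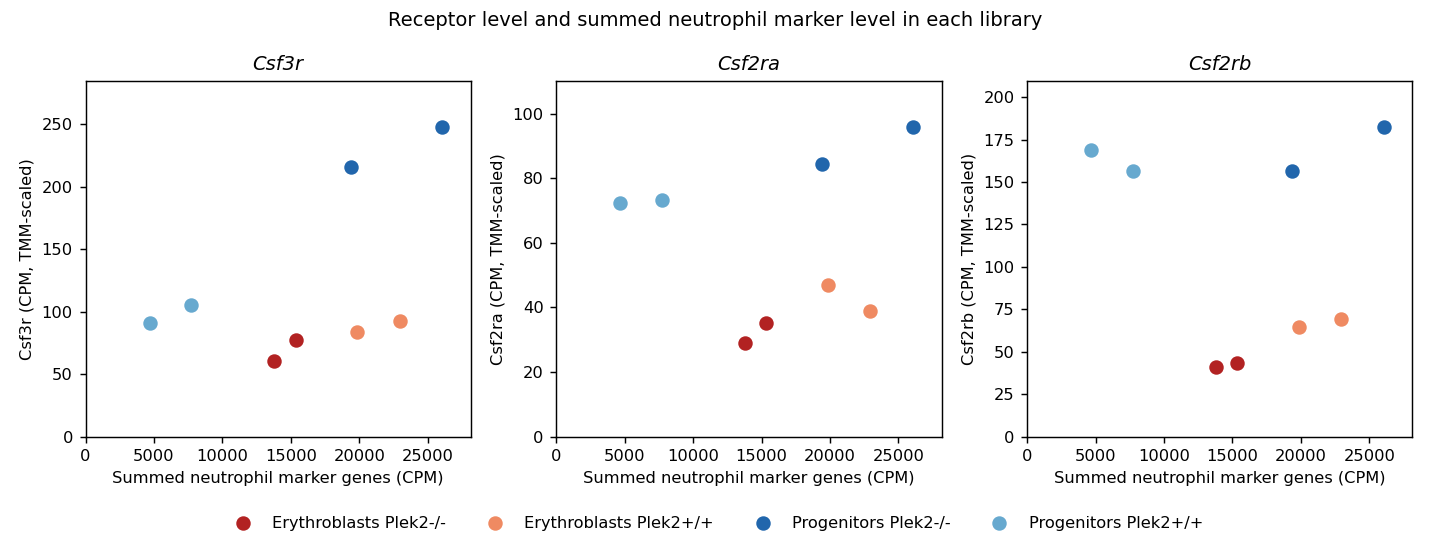
Level of Csf3r, Csf2ra and Csf2rb (vertical axes, CPM, linear from 0) against the summed level of 15 neutrophil marker genes (horizontal axes, CPM), with 1 point per library coloured by group. In both progenitor groups Csf2rb runs from 157 to 182 CPM, while the Plek2-/- progenitors lie to the right of the Plek2+/+ progenitors and higher in Csf3r. The Plek2+/+ erythroblasts lie at a marker sum of 19865 to 22950 CPM, with Csf3r at 84.0 and 92.9 CPM.

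Csf2ra and Csf2rb together form the GM-CSF receptor. Between the labels, Csf2ra was called in progenitors and Csf2rb in erythroblasts. In Plek2-/- erythroblasts both were lower, though Csf2ra did not pass the test there. Csf2ra encodes the chain specific to GM-CSF. It was 84.5 and 95.8 CPM in Plek2-/- progenitors, against 73.3 and 72.3 CPM in Plek2+/+ progenitors. The groups did not overlap, and Csf2ra rose by 1.28-fold (log2 fold change 0.35, SE 0.08, edgeR adjusted p = 0.0445). This call lies close to the threshold: it was lost without replicate 1 (adjusted p = 0.277) or replicate 2 (adjusted p = 0.458) of the Plek2+/+ progenitors, with library totals as the scaling (0.0702), with limma-voom (0.0503) and in 1 fit of all 8 libraries (0.166). In erythroblasts Csf2ra was 35.1 and 29.0 CPM in the Plek2-/- libraries and 47.1 and 38.8 CPM in the Plek2+/+ libraries, apart but short of the test (-0.42, SE 0.13, edgeR adjusted p = 0.125), and it passed without replicate 1 of the Plek2-/- erythroblasts (-0.56, adjusted p = 0.0129).

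Csf2rb was the only receptor called lower in Plek2-/- than in Plek2+/+ erythroblasts. Csf3r, Csf2ra and Csf1r were also lower there (log2 fold change -0.36, -0.42 and -0.42) but did not pass the test. Csf2rb was 43.4 and 40.9 CPM in the Plek2-/- libraries, against 64.6 and 69.5 CPM in the Plek2+/+ libraries, with a clear gap between the groups. The fall was 1.58-fold (log2 fold change -0.66, SE 0.10, edgeR adjusted p = 0.00762). Without replicate 1 or replicate 2 of the Plek2+/+ erythroblasts its size was similar (-0.71 and -0.63) but the adjusted p was 0.0586 and 0.0894. In progenitors Csf2rb was 157 and 182 CPM in the Plek2-/- libraries and 157 and 169 CPM in the Plek2+/+ libraries, which overlap (log2 fold change 0.10, interval -0.09 to 0.29, edgeR adjusted p = 0.607). It was called higher there without replicate 1 of the Plek2-/- progenitors (0.20, adjusted p = 0.00998).

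Markers of some other marrow cells moved with Csf2rb in erythroblasts, while other marker lists had no gene called. Besides the neutrophil genes, the 14 genes of mast cells, basophils and eosinophils summed to 957 to 1416 CPM in Plek2-/- erythroblasts, against 2182 to 2585 CPM in Plek2+/+ erythroblasts, with 0 called higher and 4 lower of 11 tested. Mcpt4 and Tpsb2 from that list were at 0 in every erythroblast library. The same list was also lower in Plek2-/- progenitors, where Csf2rb was not called. It summed there to 1552 to 2548 CPM, against 2999 to 3700 CPM in Plek2+/+ progenitors. Of 11 tested, 1 was called higher and 1 lower, and 10 were negative (median log2 fold change -0.40). The 11 B cell genes summed to 85.5 to 121 CPM in Plek2-/- erythroblasts, against 182 to 213 CPM in Plek2+/+ erythroblasts, with 0 called higher and 6 lower. Of 8 T and NK cell genes tested, 0 were called higher and 1 lower (median log2 fold change -0.71). None were called of 11 dendritic cell genes (median 0.24, with 8 positive), of 9 megakaryocyte genes (0.03, with 7 positive), of 16 monocyte and macrophage genes (-0.10) or of 11 stem and progenitor genes (-0.28). The part of these cells in the Csf2rb difference was not tested.

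Il3ra and Csf2rb2 had the lowest levels of the receptors per kilobase of transcript in each of the 4 groups. Il3ra encodes the ligand-binding chain for interleukin 3. It was 3.99 and 3.20 CPM in Plek2-/- erythroblasts and 4.28 and 4.34 CPM in Plek2+/+ erythroblasts, from 47 to 70 counts a library. In progenitors it was 17.4 and 15.5 CPM in the Plek2-/- libraries and 18.4 and 19.5 CPM in the Plek2+/+ libraries. The label groups did not overlap in either population, but neither difference passed the test (log2 fold change -0.26, SE 0.24, edgeR adjusted p = 0.687 in erythroblasts, and -0.17, SE 0.10, adjusted p = 0.482 in progenitors). Csf2rb2 was 6.81 and 4.42 CPM in Plek2-/- erythroblasts and 7.04 and 7.74 CPM in Plek2+/+ erythroblasts. In progenitors it was 20.1 and 27.8 CPM in the Plek2-/- libraries and 27.0 and 28.3 CPM in the Plek2+/+ libraries, with overlap. Neither of its label differences passed the test (-0.40, SE 0.23, edgeR adjusted p = 0.464 in erythroblasts, and -0.16, SE 0.14, adjusted p = 0.635 in progenitors). In progenitors, Csf2rb2 was called lower without replicate 2 of the Plek2-/- libraries (-0.42, adjusted p = 0.00417).

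Kit and Flt3, the receptors of early progenitors, were low in erythroblasts. Kit encodes the receptor for stem cell factor. It was 20.8 and 18.3 CPM in Plek2-/- erythroblasts and 21.2 and 16.2 CPM in Plek2+/+ erythroblasts. In progenitors it was 117 and 163 CPM in the Plek2-/- libraries and 144 and 154 CPM in the Plek2+/+ libraries. The label groups overlapped in both populations (log2 fold change 0.07, edgeR adjusted p = 0.890 in erythroblasts, and -0.05, adjusted p = 0.898 in progenitors). The 2 Plek2-/- progenitor libraries lay on either side of the others: without replicate 1 Kit was called higher (0.16, edgeR adjusted p = 0.0338) and without replicate 2 lower (-0.31, adjusted p = 0.000776). Since Kit protein chose the progenitors, its difference between populations is a description, a log2 fold change of -2.85 in the Plek2-/- libraries and -2.997 in the Plek2+/+ libraries.

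Flt3 encodes the receptor for Flt3 ligand, found on lymphoid and myeloid progenitors. It was 9.62 and 7.21 CPM in Plek2-/- erythroblasts and 9.73 and 10.9 CPM in Plek2+/+ erythroblasts. In progenitors it was 97.7 and 81.2 CPM in the Plek2-/- libraries and 101 and 94.6 CPM in the Plek2+/+ libraries. The label groups overlapped in progenitors and narrowly did not in erythroblasts. No label difference passed the test (log2 fold change -0.29, SE 0.19, edgeR adjusted p = 0.525 in erythroblasts, and -0.09, SE 0.10, adjusted p = 0.716 in progenitors), though without replicate 1 of the Plek2-/- progenitors Flt3 was called lower there (-0.23, adjusted p = 0.00947). Erythroblasts were lower by 10.7-fold in the Plek2-/- libraries (log2 fold change -3.42, SE 0.14, edgeR adjusted p = 1.41e-10) and by 9.47-fold in the Plek2+/+ libraries (-3.24, SE 0.13, adjusted p = 1.57e-10).

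Csf1r encodes the receptor for macrophage colony-stimulating factor and marks monocytes and macrophages. The gene lies at chr18:61100598-61132149 on the plus strand. Its exons overlap Hmgxb3 on the opposite strand over 873 bases, 15.1% of their length, and since the strand setting is not given in the sources used here, reads of the pair cannot be told apart there. Csf1r was 159 and 116 CPM in Plek2-/- erythroblasts and 206 and 163 CPM in Plek2+/+ erythroblasts. In progenitors it was 195 and 197 CPM in the Plek2-/- libraries and 234 and 252 CPM in the Plek2+/+ libraries. Both Plek2-/- progenitor values lay within the range of the Plek2+/+ erythroblasts, and the Plek2+/+ progenitors lay above all other libraries. The label difference did not pass the test in erythroblasts (log2 fold change -0.42, SE 0.14, edgeR adjusted p = 0.149) or in progenitors (-0.27, SE 0.06, adjusted p = 0.0592), although neither pair of groups overlapped. It passed in erythroblasts without replicate 1 of the Plek2-/- libraries (-0.67, adjusted p = 0.00164), and in progenitors without replicate 1 (adjusted p = 0.00142) or replicate 2 (adjusted p = 0.00255) of the Plek2-/- libraries, with library totals (0.0267), with DESeq2 (0.0484) and with no filter on low counts (0.00982). Erythroblasts were lower than progenitors by 1.43-fold in the Plek2-/- libraries (-0.51, SE 0.13, edgeR adjusted p = 0.00314) and by 1.31-fold in the Plek2+/+ libraries (-0.39, SE 0.13, adjusted p = 0.0152). In the Plek2+/+ libraries that call was lost without replicate 2 of the erythroblasts (-0.19, adjusted p = 0.262) or replicate 2 of the progenitors (-0.34, adjusted p = 0.0840). The 16 monocyte and macrophage genes summed to 2356 to 3038 CPM in Plek2-/- erythroblasts, 3067 to 3203 CPM in Plek2+/+ erythroblasts, 3304 to 3348 CPM in Plek2-/- progenitors and 2813 to 2999 CPM in Plek2+/+ progenitors, and their part in the Csf1r level was not tested.

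Set side by side per kilobase of the longest coding transcript, the receptors gave each population a mix of its own. Epor made up 61.3% ± 6.53 of the summed CPM per kilobase of the 9 genes in Plek2-/- erythroblasts and 55.3% ± 2.47 in Plek2+/+ erythroblasts (SD, n = 2 each). In progenitors it made up 3.86% ± 0.0315 in the Plek2-/- libraries and 5.001% ± 0.174 in the Plek2+/+ libraries. Csf3r was the largest share in Plek2-/- progenitors, at 25.1% ± 0.638, against 12.1% ± 1.38 in Plek2+/+ progenitors. There Csf1r was the largest share, at 22.1% ± 0.935, against 15.8% ± 1.05 in Plek2-/- progenitors. The Csf3r level per kilobase over that of Csf1r was 1.49 and 1.70 in the 2 Plek2-/- progenitor libraries, against 0.610 and 0.489 in the Plek2+/+ ones. Epor exceeded Kit per kilobase by 30.8 to 45.7 times across the erythroblast libraries, and its ratio to Kit was 0.348 to 0.432 across the progenitor libraries.

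**Figure D3:**
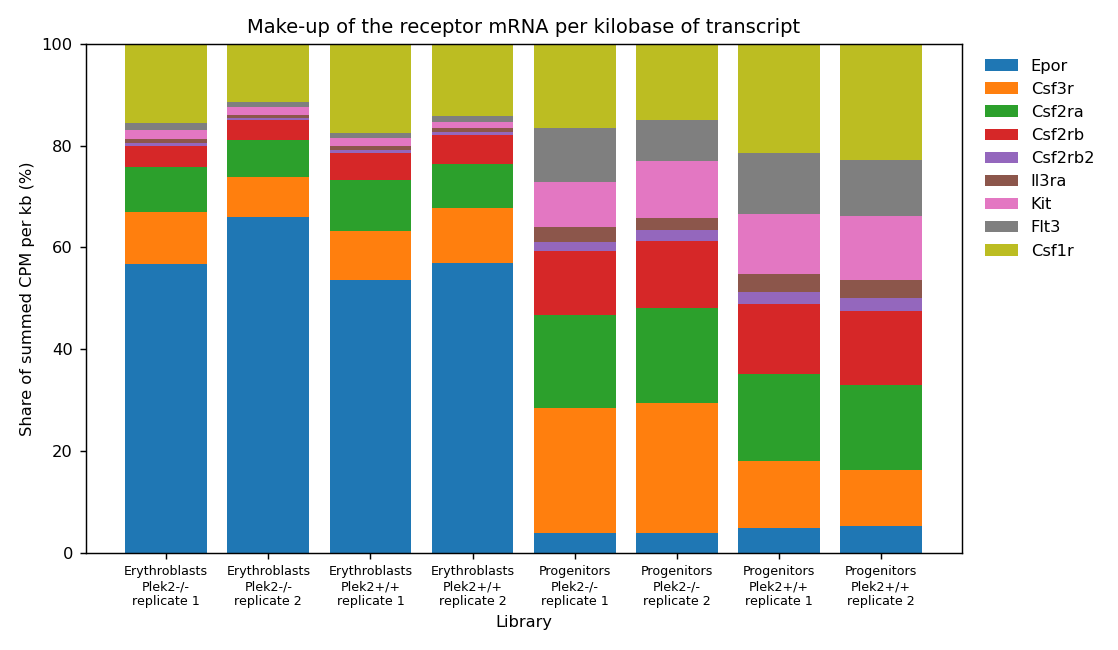
Share of each receptor gene in the summed CPM per kilobase of the 9 genes (vertical axis, percent), with 1 stacked bar per library. Epor fills 61.3% on average in Plek2-/- erythroblasts and 55.3% in Plek2+/+ erythroblasts, and Csf3r 25.1% in Plek2-/- progenitors against 12.1% in Plek2+/+ progenitors.

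The GM-CSF receptor chains also differed in their balance. Csf2ra over Csf2rb, per kilobase, was 2.14 and 1.88 in Plek2-/- erythroblasts, 1.93 and 1.48 in Plek2+/+ erythroblasts, 1.43 and 1.39 in Plek2-/- progenitors and 1.24 and 1.137 in Plek2+/+ progenitors. Every erythroblast library had the higher ratio. The label groups overlapped in erythroblasts and did not in progenitors. Il3ra over Csf2rb ran from 0.132 to 0.249 in the 8 libraries, so the interleukin 3 chain stood below the common chain in each.

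Erythroblasts were lower than progenitors in most receptors. Of the 8 tested, Kit being left out, 1 was called higher and 7 lower in the Plek2-/- libraries, where 37.5% of all tested genes were called higher and 39.2% lower. In the Plek2+/+ libraries 1 was called higher and 6 lower, against 36.0% and 37.8% of all tested genes. The median log2 fold change of the 8 was -1.88 in the Plek2-/- libraries and -1.02 in the Plek2+/+ libraries, beside -0.07 and -0.06 for all tested genes. This direction was not particular to the 8. Of 32 other cytokine receptors tested, 4 were called higher and 23 lower in the Plek2-/- libraries (median -1.11). In the Plek2+/+ libraries 7 of them were called higher and 22 lower (median -0.79). Of 14 other receptor tyrosine kinases tested, 2 were called higher and 9 lower under each label. Il3ra was lower by 4.60-fold in Plek2-/- and by 4.40-fold in Plek2+/+ erythroblasts, and Csf2rb2 by 4.31-fold and 3.75-fold (edgeR adjusted p at most 8.64e-07 in these 4). Csf2rb was lower by 4.02-fold in the Plek2-/- libraries (edgeR adjusted p = 5.92e-10) and by 2.42-fold in the Plek2+/+ libraries (adjusted p = 3.92e-08), and Csf2ra by 2.82-fold (adjusted p = 7.79e-08) and 1.69-fold (adjusted p = 4.47e-05). With library totals as the scaling, the median of all genes moved to -0.86 in the Plek2-/- and -0.87 in the Plek2+/+ comparison. The receptor median moved with it, to -2.67 in the Plek2-/- and -1.83 in the Plek2+/+ libraries, where 8 of 8 receptors were then called. Under that scaling the log2 fold change in the Plek2-/- and Plek2+/+ libraries was -2.28 and -1.57 for Csf2ra, -2.79 and -2.09 for Csf2rb, -2.89 and -2.72 for Csf2rb2, -2.99 and -2.95 for Il3ra, -4.21 and -4.06 for Flt3, and -1.30 and -1.21 for Csf1r. All genes then split into 2307 called higher and 8957 lower in the Plek2-/- libraries, against 5009 and 5242, and into 2111 and 9171 in the Plek2+/+ libraries, against 4818 and 5047.

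**Figure D4:**
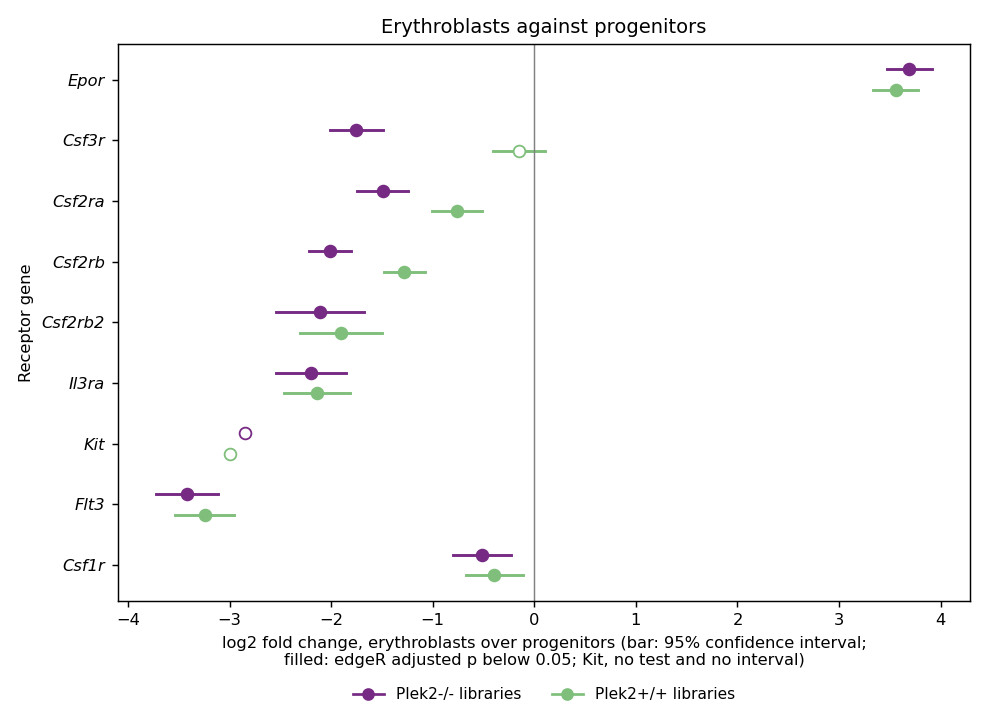
Log2 fold change of each receptor gene, erythroblasts over progenitors (horizontal axis), in the Plek2-/- libraries (upper point of each pair) and the Plek2+/+ libraries (lower point). Bars are 95% confidence intervals and filled points passed the test; Kit has neither test nor interval. Epor lies at 3.69 and 3.56, and Flt3 at -3.42 and -3.24.

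Between the Plek2 labels, few receptors were called. In erythroblasts 0 of 9 were called higher and 1 lower, Csf2rb, where 0.180% of all tested genes were called higher and 2.66% lower. At an unadjusted p below 0.05, 0 receptors were higher and 4 lower in Plek2-/- erythroblasts, where 4.16% of all tested genes were higher and 10.5% lower. The median log2 fold change of the 9 was -0.36, beside 0.01 for all tested genes, and 8 were negative. That median was -0.55 without replicate 1 and -0.17 without replicate 2 of the Plek2-/- erythroblasts. In progenitors 2 of 9 were called higher, Csf3r and Csf2ra, and 0 lower, where 4.50% of all tested genes were called higher and 0.402% lower. At an unadjusted p below 0.05, 2 were higher and 1 lower there, where 11.5% of all tested genes were higher and 5.75% lower. The median there was -0.09, beside -0.01 for all tested genes, and 0.048 without replicate 1 of the Plek2-/- progenitors. With library totals as the scaling, the progenitor calls over all genes split into 527 higher and 133 lower, against 593 and 53.

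**Figure D5:**
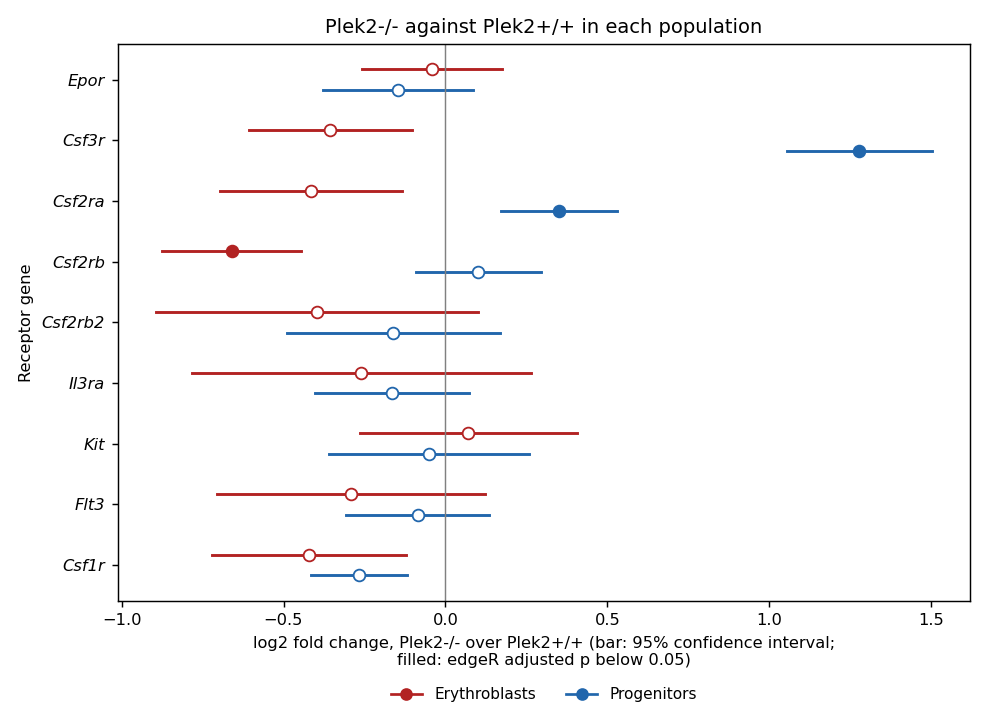
Log2 fold change of each receptor gene, Plek2-/- over Plek2+/+ (horizontal axis), in erythroblasts (upper point of each pair) and progenitors (lower point), with 95% confidence intervals. Filled points passed the test: Csf2rb in erythroblasts at -0.66, and Csf3r and Csf2ra in progenitors at 1.28 and 0.35.

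The label effect in erythroblasts minus that in progenitors was tested in 1 fit of all 8 libraries. It was below 0 for Csf3r (-1.60, SE 0.17, edgeR adjusted p = 0.000272), Csf2rb (-0.73, SE 0.13, adjusted p = 0.00445) and Csf2ra (-0.73, SE 0.16, adjusted p = 0.0162), the 3 called lower of 9, with 0 called higher. Among all tested genes 0.232% were called higher and 5.32% lower. The Csf2ra call was lost without replicate 1 of the Plek2+/+ erythroblasts (adjusted p = 0.0502), replicate 2 of the Plek2-/- progenitors (0.0572), or replicate 1 (0.0535) or 2 (0.0711) of the Plek2+/+ progenitors. All 15 neutrophil marker genes were called lower in the same test. For the other 6 receptors the difference ran from -0.20 (Csf2rb2) to 0.15 (Kit), with edgeR adjusted p of 0.645 or more.

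Several ligands of these receptors had no counts in the sorted cells. Epo, Il3 and Thpo had 0 counts in all 8 libraries, and Csf2, which encodes GM-CSF, had 0 counts in the 4 erythroblast libraries. Kitl, which encodes the ligand of Kit, was 7.59 and 4.83 CPM in Plek2-/- erythroblasts, against 0.389 and 0.262 CPM in Plek2-/- progenitors, and 4.59 and 5.91 CPM in Plek2+/+ erythroblasts, against 0.141 and 0.169 CPM in Plek2+/+ progenitors. It was thus called higher in erythroblasts under both labels (log2 fold change 4.24 and 5.01, edgeR adjusted p = 1.40e-07 and 1.50e-07). The progenitor values rest on 10 and 8 counts in the Plek2-/- and 3 and 5 counts in the Plek2+/+ libraries. The size of both fold changes is therefore uncertain. Csf1, the ligand of Csf1r, was lower in erythroblasts, with a log2 fold change of -2.14 in the Plek2-/- and -1.86 in the Plek2+/+ libraries. Of the ligands tested, 0 of 3 were called between labels in either population.

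Among 33 other cytokine receptors, 1 was called higher and 2 lower of 30 tested in Plek2-/- erythroblasts (median log2 fold change -0.22, beside 0.01 for all genes). Il7r, the receptor of early lymphoid cells, fell to a mean of 9.22 CPM in Plek2-/- erythroblasts, against 15.9 CPM in Plek2+/+ erythroblasts (edgeR adjusted p = 0.0222). Il4ra fell (-0.53, adjusted p = 0.0283), while Il1rl1, the interleukin 33 receptor, rose (0.38, adjusted p = 0.0475). In progenitors 2 of 31 were called higher and 0 lower. Il1r2, a decoy receptor of interleukin 1 made by neutrophils, was 17.6 CPM on average in Plek2-/- progenitors, against 5.09 CPM in Plek2+/+ progenitors (1.86, SE 0.21, edgeR adjusted p = 0.00252), and Il13ra1 rose by 0.87 on the log2 scale (adjusted p = 0.00455). Of 15 other receptor tyrosine kinases, 0 of 11 tested were called between labels in erythroblasts and 1 of 14 in progenitors, Met, the receptor of hepatocyte growth factor, which fell (-0.39, adjusted p = 0.0435). Between the populations, 9 of the 14 tested were called lower in erythroblasts under each label. Axl and Mertk, receptors that macrophages use to clear dying cells, were the 2 called higher in erythroblasts than in progenitors under both labels. Axl was at 188 and 184 CPM in Plek2-/- and Plek2+/+ erythroblasts, against 9.75 and 8.36 CPM in Plek2-/- and Plek2+/+ progenitors.

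Downstream of the receptors, a list of 27 genes covered signal relay and its control, among them JAKs, STATs, adaptors, other kinases and phosphatases. Of these, 0 were called higher and 5 lower in Plek2-/- erythroblasts, with a median log2 fold change of -0.11. Fes (-0.54, edgeR adjusted p = 0.0159), Vav1 (-0.49, adjusted p = 0.0230) and Stat3 (-0.46, adjusted p = 0.0286) led these. Between the populations 9 were called higher and 17 lower in erythroblasts under either label. Of 8 STAT5 feedback and target genes, 0 were called between labels in erythroblasts, where Pim1 averaged 477 CPM in the Plek2-/- and 497 CPM in the Plek2+/+ libraries. In progenitors Socs3, a feedback inhibitor, rose (1.04, edgeR adjusted p = 0.00154), as did Osm (0.78, adjusted p = 0.00233). Bcl2l1, a survival gene of erythroblasts, averaged 518 CPM in Plek2-/- erythroblasts, against 20.7 CPM in Plek2-/- progenitors, and 532 CPM in Plek2+/+ erythroblasts, against 17.8 CPM in Plek2+/+ progenitors. In erythroblasts 3 of these 8 genes were called higher and 4 lower than in progenitors in the Plek2-/- libraries, and 4 higher and 1 lower in the Plek2+/+ libraries.

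Of 12 transcription factors that act on receptor genes, 0 were called higher and 2 lower in Plek2-/- erythroblasts (median log2 fold change -0.32). Sfpi1, the gene of the myeloid factor PU.1, averaged 37.9 CPM in Plek2-/- erythroblasts, against 58.1 CPM in Plek2+/+ erythroblasts (-0.61, edgeR adjusted p = 0.0176). Cebpe, a factor of late granulocytes, fell in erythroblasts (-0.65, adjusted p = 0.0179) and rose in progenitors (0.96, adjusted p = 0.00169), where Cebpa fell (-0.34, adjusted p = 0.0252). The label effects on Cebpe, Sfpi1 and Gfi1 were lower in erythroblasts than in progenitors (edgeR adjusted p = 0.000272, 0.00264 and 0.0210). Klf1, Gata1 and Tal1, factors of the red cell program, were higher in erythroblasts under both labels, Klf1 at 680 CPM in Plek2-/- erythroblasts, against 50.9 CPM in Plek2-/- progenitors.

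The genes nearest to each receptor in pattern were found by the root mean square distance of centred log2(CPM + 1) values over the 8 libraries, among 8401 genes. Hist3h2a was nearest to Epor (distance 0.0895) and Slc16a10, a transporter of aromatic amino acids, next (0.0926). Csf3r had no close neighbour by comparison: its nearest, Map3k9, lay at 0.173, and the nearest genes of the other 8 receptors at 0.0622 to 0.111. Arhgap27 was nearest to Csf2ra (0.0622), Ctdspl to Csf2rb (0.0752), Celf2 to Csf2rb2 (0.0650), Myb to Il3ra (0.0640), Arhgap32 to Kit (0.102), Cd34 to Flt3 (0.111) and Kcnk6 to Csf1r (0.0854). Myb encodes a factor that progenitors need, and Cd34 a surface protein of early progenitors. The 8 libraries fall into 2 populations, and the distances are a description with no test.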

How the data were processed

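RNA was sequenced on an Illumina HiSEQ4000 from 8 libraries, 2 in each of 4 groups. The authors deposited raw read counts per gene by symbol, and the submitters' processing notes name the build mm10 and the tools STAR 2.5.2a, cutadapt 1.13, DESeq2 1.14.1 and HTSeq 0.6.1pl. The sources used here do not give what each tool did, the annotation or how strand was set. A second, normalized table from the authors was not used. Total counts ranged from 16038035 to 23521726, which sets the precision of low genes such as Il3ra.

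Counts were tested with edgeR 4.0.16 (R 4.3.3): filterByExpr, TMM scaling and the quasi-likelihood test, with Benjamini-Hochberg adjustment over all tested genes, called below 0.05. Each label comparison was fitted on the 4 libraries of its population; the difference of the effects and the population contrasts were fitted on all 8. Biological coefficients of variation were 7.17% (progenitors), 8.12% (erythroblasts) and 7.62% (all libraries). The procedure was tested on simulated data. CPM are on TMM-scaled totals, except for the value of 3 counts, which is on library totals. Levels per kilobase use GENCODE vM21 transcript lengths. Alternatives were library totals, DESeq2 size factors, DESeq2 1.42.0, limma-voom 3.58.1, no filter, the replicate number as a block, 1 fit of all libraries, and each library left out.

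The receptors, the gene lists and the rules were chosen with earlier results of these data known. From each pathway list the text names up to 3 called genes by lowest adjusted p or, with none called, the most abundant one, and for each receptor up to 2 genes of nearest pattern with a mean of at least 10 CPM. Not every gene these rules pick is described, and a few are not reported here. Beta chains were aligned with Biopython 1.88, and 50-base stretches were compared across annotated transcripts. Promoter windows are RefSeq's; 7 of the 9 receptors had a window that could be shown. A few listed marker genes were not analysed here.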

Additional observations from a re-analysis of the deposited data

Results flagged for a closer look

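For 3 receptors the difference between the Plek2 labels was itself different in erythroblasts and progenitors, by a test of that difference (erythroblasts minus progenitors, log2 scale). For Csf3r it was -1.60: the label difference was -0.36 in erythroblasts and 1.28 in progenitors. For Csf2ra it was -0.73, from -0.42 in erythroblasts and 0.35 in progenitors. For Csf2rb it was -0.73, from -0.66 in erythroblasts and 0.10 in progenitors.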

How the results depend on the processing

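In erythroblasts the genes called numbered 348 in all, and 230 with library totals, 845 with no filter and 579 with the replicate block. The receptors called were 4 with no filter (Csf3r, Csf2ra, Csf2rb and Csf1r) and 3 with the replicate block (Csf2ra, Csf2rb and Csf1r). In progenitors 646 genes were called, and 1315 with no filter; 1 receptor, Csf3r, was called with limma-voom and with all 8 libraries in 1 fit, and 3 with DESeq2 and with no filter. For the difference of the effects 742 genes were called, and 1215 with no filter.

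Replicate numbers share no more than a number in the labels. Same-numbered deviations correlated at 0.0738 in erythroblasts and -0.0988 in progenitors over 13365 genes, and the replicate block called 579 genes in erythroblasts, 813 in progenitors and 738 for the difference.

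Leaving out each library in turn called 0 to 4 receptors and 25 to 995 genes in erythroblasts, 1 to 6 and 239 to 2649 in progenitors, 2 to 3 and 401 to 1175 for the difference, 6 to 7 and 8630 to 10051 for the populations in Plek2+/+ and 8 and 9336 to 10259 in Plek2-/- libraries. These fits leave 1 library in a group and assume that it varies like the others. Signs turned, in left-out fits only, for Epor (-0.17 to 0.056) and Kit (-0.13 to 0.28) in erythroblasts. They turned for Csf2rb (-0.012 to 0.20), Csf2rb2 (-0.42 to 0.048), Kit (-0.31 to 0.16) and Flt3 (-0.23 to 0.045) in progenitors. For the difference they turned for Epor (-0.043 to 0.22), Csf2rb2 (-0.57 to 0.056), Il3ra (-0.26 to 0.032), Kit (-0.066 to 0.41) and Csf1r (-0.40 to 0.026). The cause was not tested. In the settings that keep all libraries, 292 values were unchanged. Another 9 newly passed the threshold, 3 no longer did, 2 with no test moved and 0 reversed. Unchanged values kept direction and side of the threshold. For Kit between populations, which had no test, unchanged means within the SE of the main fit. Il3ra in erythroblasts rests on 47 to 70 counts a library, which limits what can be seen.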
